A study of Homo sapiens with 4 samples.

Results

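Karyopherins are the carrier proteins of nuclear transport, and 10 of their genes are described here by where the RNA-editing enzyme ADAR was crosslinked to their RNA: XPO1, XPO5, XPO7, XPOT, CSE1L, TNPO1, TNPO3, KPNB1, IPO5 and IPO7. Intervals of the deposited lists were taken as belonging to a gene when their midpoint lay in its RefSeq span (GRCh38.p14) on its strand. This gave 1046 of 534161 clusters in replicate 1, 418 of 155848 in replicate 2, and 24 of 1717 peaks in the list that combines both. A cluster is an interval of piled-up reads as the authors called it, and the combined list is called reproducible below. The genes were chosen by their folds, p-values and peaks in these same lists, with earlier results in view, so their counts are descriptions.

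The libraries came from K562, an established line grown from a chronic myeloid leukaemia, which keeps features of red blood cell precursors. For 2 IP libraries, RNA was pulled down with an ADAR1 antibody, and 2 input libraries show the RNA before that step; both kinds were numbered as replicates 1 and 2. Ultraviolet light (254 nm, 400 mJ/cm2) had joined proteins to the RNA they touched, the first step of the method called eCLIP. Whether the replicates were separate cultures is not stated, so the spread between them may be technical. Of the erythroid marker genes with a known strand, 10 of 10 held a cluster in replicate 1 and 9 in replicate 2, against 1 and 0 of 7 hepatocyte markers, with ALB and AFP at 0.

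Karyopherins bind cargo on one side of the nuclear pore and release it on the other, with the direction set by the small GTPase Ran. Importins and transportins carry proteins in, and exportins carry proteins and some RNAs out. ADAR1, which turns adenosine into inosine in double-stranded RNA, is itself a cargo: TNPO1 is known to bring it into the nucleus, and XPO1 is known to export its longer form. The values below concern the RNAs of these genes, not the proteins.

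Each list gives the authors' log2 fold of IP over input and −log10 p for every cluster. Enriched clusters are those in which both values reached 3 or more. For all 102 enriched clusters of the 10 genes, 1 pair of whole read numbers reproduced both the fold and the p, and these recovered reads are given as IP reads against input reads. Intervals beside a log2 fold are exact 95% binomial intervals from those reads and cover counting error only. An input count of 0 never occurred, so the lists do not tell whether a count of 1 is an observed read or stands in for none.

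All 24 reproducible peaks lay in 3 of the karyopherin RNAs. XPO1 had 12, TNPO3 had 10 and IPO7 had 2, while XPO5, XPO7, XPOT, TNPO1, CSE1L, KPNB1 and IPO5 had 0. Across the series, 3.67% of 15441 genes with a cluster had a reproducible peak. Only 7 genes, XPO1 among them, had 12 or more. Because the genes were picked with these peaks known, nothing is read from 3 of 10 against that share.

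**Figure D1:**
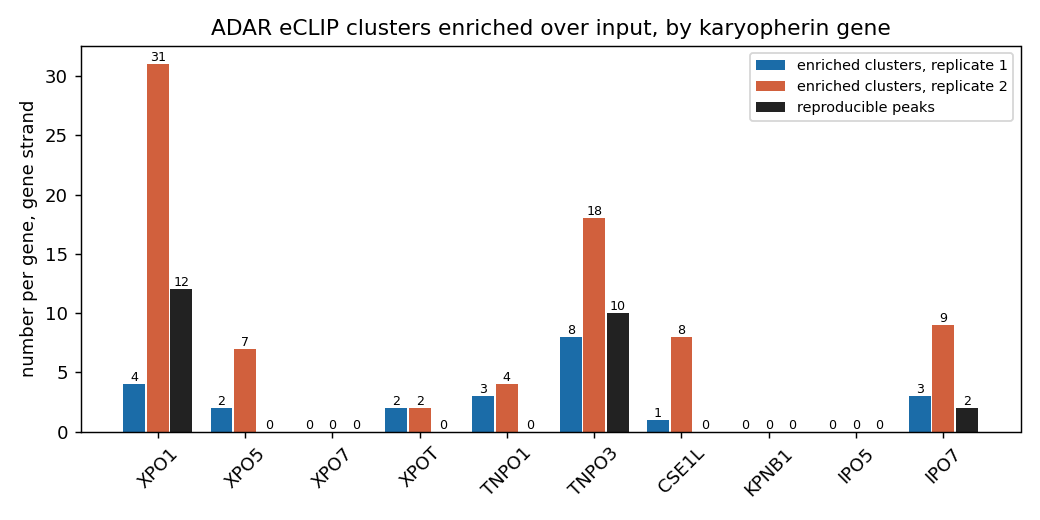
Bars give the number of enriched clusters on the gene's strand in replicate 1 and replicate 2 and of reproducible peaks, for each karyopherin gene. XPO1 and TNPO3 have the most in replicate 2 (31 and 18), and XPO7, KPNB1 and IPO5 have 0 in every list.

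In replicate 1, 23 of the 1046 karyopherin clusters were enriched (2.20%), against 1.39% of all clusters in that list. In replicate 2, 79 of 418 were enriched (18.9%), against 12.8% of all clusters. The same 7 genes had at least 1 enriched cluster in both replicates, and the same 3 had none in either. By comparison, 14.9% of the 15441 genes had an enriched cluster in replicate 1 and 31.2% in replicate 2. The median log2 fold over all karyopherin clusters was 0.07 in replicate 1 and 1.62 in replicate 2, close to the list medians of 0.07 and 1.85.

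Among the exportins, XPO1 (CRM1), the main export receptor for proteins with a leucine-rich export signal, held the most clusters. Its gene lies on the minus strand of chromosome 2 from 61477849 to 61538612, a span of 60764 bases. There were 180 clusters in replicate 1, 4 of them enriched, and 108 in replicate 2, 31 of them enriched. The 12 reproducible peaks had log2 folds of 3.26 to 4.82 and formed 6 separate sites once touching peaks were joined. The sites lay between 61505656 and 61519530, which is 19.1 to 33.0 kb from the 5′ end of the span, and together covered 458 bases.

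The highest reproducible peak of XPO1, at 61519208 to 61519220, had a log2 fold of 4.82. In replicate 1 that interval held 345 IP reads against 5 input reads, a log2 fold of 4.37 (95% interval 3.14 to 6.01). In replicate 2 the overlapping cluster, 61519193 to 61519255, held 69 IP reads against 4 input reads, a log2 fold of 4.96 (95% interval 3.54 to 6.88). Both replicates were therefore far above input here, and their intervals overlapped. The neighbouring peak at 61519221 to 61519235 had 348 IP reads against 5 input reads in replicate 1. These 2 clusters were the only ones of the 23 in replicate 1 whose counting interval lay wholly above a log2 fold of 3, against 31 of 79 in replicate 2.

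The fourth enriched cluster of XPO1 in replicate 1 lay close by, at 61519415 to 61519452, with 164 IP reads against 5 input reads. At the other 4 reproducible sites of XPO1 the clusters were enriched in replicate 2 and not in replicate 1. At the peak farthest from the 5′ end, 61505656 to 61505666, replicate 1 had 107 IP reads against 9 input reads (log2 fold 1.84, interval 0.86 to 3.00) over a wider cluster. Replicate 2 had 113 IP reads against 6 input reads there (log2 fold 5.09, interval 3.92 to 6.57), and the intervals did not overlap. At 61509503 to 61509561, replicate 1 had 155 IP reads against 11 input reads (log2 fold 2.08) in a cluster from 61509475 to 61509563. The replicate 2 clusters there held 127 IP reads against 7 input reads (log2 fold 5.04) and 123 IP reads against 6 input reads (log2 fold 5.21). The peak at 61517313 to 61517384 gave 162 IP reads against 10 input reads (log2 fold 2.28) in replicate 1 and 74 IP reads against 7 input reads (log2 fold 4.26) in replicate 2. At all 3 places the replicate 1 clusters also had a −log10 p above 3, so IP exceeded input in both replicates, by a smaller fold in replicate 1. Of the 12 XPO1 peaks, 4 overlapped an enriched cluster in replicate 1 and 12 in replicate 2.

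The peak nearest the 5′ end, 61519454 to 61519530, was of the same kind. Replicate 1 had 201 IP reads against 11 input reads (log2 fold 2.46), and replicate 2 had 83 IP reads against 8 input reads (log2 fold 4.23). The remaining enriched clusters of replicate 2 were spread over most of the gene, from 9.71% to 97.7% of its span. Counting those at reproducible sites too, the densest stretch of enriched replicate 2 clusters ran from 61509109 to 61509561. It held 12 enriched clusters, with 34 to 127 IP reads against 3 to 8 input reads and log2 folds of 3.36 to 5.21. The cluster nearest the 3′ end, at 61479213 to 61479316, also lies in the span of USP34-DT, a noncoding RNA gene on the opposite strand.

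**Figure D2:**
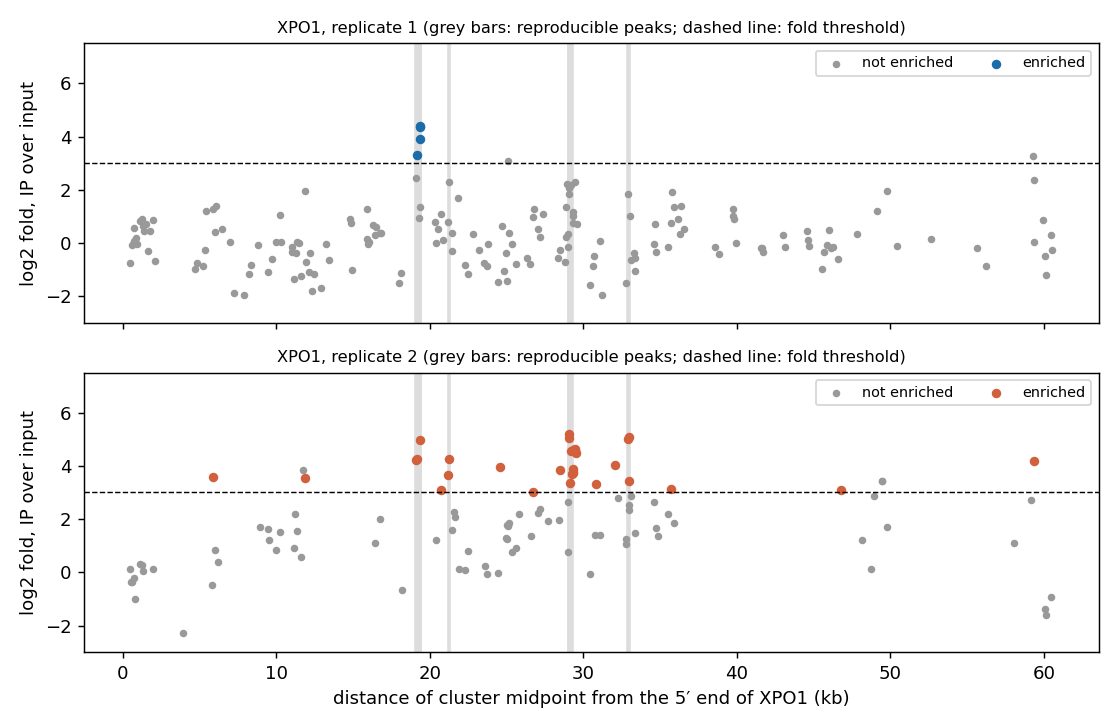
Log2 fold of IP over input for every XPO1 cluster, by distance from the 5′ end of the gene in kb, in replicate 1 above and replicate 2 below. Enriched clusters are coloured, and grey bars mark the reproducible peaks. In replicate 1 the 4 enriched clusters sit at 2 neighbouring sites, and in replicate 2 they run through the gene.

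XPO1 clusters near a transcription start were deep and not enriched. RefSeq lists 2 start windows of XPO1, each from 250 bases before to 50 after a start. Only the second, chromosome 2 positions 61537038 to 61537337 on the minus strand (start at 61537087), was covered by clusters in both replicates. It is printed because it shows karyopherin RNA that was recovered in quantity without enrichment, beside the enriched sites above. The RefSeq sequence (GRCh38.p14), 5′ to 3′, has the 208 bases under replicate 1 clusters in capitals.
XPO1 second start window: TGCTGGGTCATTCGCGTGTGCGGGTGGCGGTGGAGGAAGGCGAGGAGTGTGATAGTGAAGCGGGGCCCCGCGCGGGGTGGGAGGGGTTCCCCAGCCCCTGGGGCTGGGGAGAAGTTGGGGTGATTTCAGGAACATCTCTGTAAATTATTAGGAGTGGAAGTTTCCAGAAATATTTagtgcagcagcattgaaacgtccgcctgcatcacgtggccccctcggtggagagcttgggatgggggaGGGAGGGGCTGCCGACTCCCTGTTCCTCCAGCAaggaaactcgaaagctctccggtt
The covered bases were 60.1% G or C. The widest replicate 1 cluster there, 61537163 to 61537278, held 279 IP reads against 62 input reads, a log2 fold of 0.44 (interval 0.03 to 0.86). In replicate 2 the cluster at 61537219 to 61537323 held 37 IP reads against 65 input reads, a log2 fold of 0.04 (interval -0.58 to 0.65). By comparison, the enriched replicate 1 cluster of XPO1 at 61519415 to 61519452 had fewer IP reads, 164, over 38 bases against 116. The enriched replicate 1 clusters at 61519208 to 61519256 had more, 345, 348 and 352.

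XPO5, which exports precursor microRNAs, had 2 enriched clusters of 103 in replicate 1 and 7 of 42 in replicate 2, and no reproducible peak. It spans 43522334 to 43576038 on the minus strand of chromosome 6. The replicate 1 clusters touched each other at 43571649 to 43571695 and held 59 and 58 IP reads against 2 input reads each. Replicate 2 had 21 IP reads against 3 input reads at 43571658 to 43571725, so both replicates were enriched at that place, with log2 folds of 3.15 and 3.12 in replicate 1 and 3.66 in replicate 2. The highest enriched cluster of XPO5 was in replicate 2 at 43572183 to 43572263, with 50 IP reads against 3 input reads and a log2 fold of 4.91 (interval 3.28 to 7.24). The replicate 1 cluster paired with it was not enriched, at 27 IP reads against 3 input reads (log2 fold 1.44). In XPO5, 3 of the 7 enriched clusters of replicate 2, at other places, also lay in the span of POLR1C, an RNA polymerase subunit gene on the opposite strand. Of the 10 genes, XPO5 alone had opposite-strand clusters, 1 per replicate and neither of them enriched.

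XPOT, the export receptor for transfer RNA, spans 64404392 to 64451125 on the plus strand of chromosome 12. It had 2 enriched clusters of 81 in replicate 1 and 2 of 23 in replicate 2, with no overlap between replicates. The highest were 68 IP reads against 1 input read at 64444483 to 64444567 in replicate 1 (log2 fold 4.35) and 16 IP reads against 2 input reads at 64422752 to 64422832 in replicate 2 (log2 fold 3.85). The other enriched clusters of XPOT were near neighbours that did not overlap: 64404947 to 64405034 in replicate 1 (40 IP reads against 1 input read, log2 fold 3.59) and 64405075 to 64405159 in replicate 2 (12 IP reads against 2 input reads, log2 fold 3.44). Replicate 1 had clusters at both replicate 2 places, and neither was enriched. They held 43 IP reads against 10 input reads at 64405080 to 64405168 (log2 fold 0.37) and 26 against 3 at 64422751 to 64422841 (log2 fold 1.38).

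CSE1L, which returns importin alpha to the cytoplasm, spans 49046312 to 49096949 on the plus strand of chromosome 20. It had 1 enriched cluster of 82 in replicate 1 and 8 of 36 in replicate 2. Its replicate 1 cluster, 49073126 to 49073182, held 41 IP reads against 1 input read (log2 fold 3.62) and overlapped a replicate 2 cluster of 14 IP reads against 3 input reads (log2 fold 3.08). Its highest fold was in replicate 2, at 49074102 to 49074129, with 50 IP reads against 1 input read and a log2 fold of 6.50 (interval 3.95 to 11.8). That interval is wide because it rests on 1 input read. The replicate 1 clusters over that place were not enriched. They held 74 IP reads against 7 input reads (49074053 to 49074120, log2 fold 1.67) and 67 against 7 (49074121 to 49074165, log2 fold 1.52).

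XPO7, an export receptor, had 0 enriched clusters of 103 in replicate 1 and 0 of 13 in replicate 2. Its highest log2 folds were 2.66 from 21 IP reads against 1 input read in replicate 1, and 3.66 from 7 IP reads against 1 input read in replicate 2. The second of these passed the fold threshold but not the p threshold. Both rest on 1 input read. Reads were recovered for 21 of the 103 XPO7 clusters in replicate 1 and 9 of the 13 in replicate 2. Among these, the most IP reads were 91 against 26 input reads (log2 fold 0.07) in replicate 1. In replicate 2 the most were 31 against 10 input reads (log2 fold 2.49).

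Among the import receptors, TNPO3, which carries serine/arginine-rich splicing factors into the nucleus, had all its reproducible peaks in 1 short stretch. The gene spans 128954185 to 129056193 on the minus strand of chromosome 7, 102009 bases in length. Its 10 reproducible peaks lay between 128998274 and 128998510, a stretch of 237 bases about 57.7 to 57.9 kb from the 5′ end, with log2 folds of 3.75 to 5.22. In contrast, the XPO1 peaks were spread over 13875 bases.

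Replicate 1 had 7 enriched clusters in this TNPO3 stretch, from 128998204 to 128998511, with 56 to 191 IP reads against 1 to 6 input reads and log2 folds of 3.22 to 4.07. Replicate 2 had 14, from 128998228 to 128998523, with 40 to 191 IP reads against 2 to 7 input reads and log2 folds of 4.96 to 6.85. The 2 ranges of fold did not overlap, and replicate 2 was the higher. The highest TNPO3 cluster of replicate 2, at 128998458 to 128998478, had 191 IP reads against 3 input reads, a log2 fold of 6.85 (interval 5.28 to 9.14). The replicate 1 cluster paired with it, 128998459 to 128998477, also had 191 IP reads, against 6 input reads, a log2 fold of 3.26. Besides the input reads, the scaling differs, since IP depth relative to input was 3.33 in replicate 1 and 0.553 in replicate 2.

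Within the stretch, which reads from high to low coordinates on the minus strand, replicate 2 folds were highest in the 5′ part, from 6.10 to 6.85 at 128998424 to 128998495. The highest replicate 1 folds lay on the 3′ side, 4.07 at 128998204 to 128998268 and 4.05 at 128998290 to 128998327. Its other enriched clusters on that side had 3.22 (128998274 to 128998289) and 3.73 (128998328 to 128998351). Those at 128998441 to 128998511 had 3.26 to 3.74. The 4.07 rests on 1 input read (interval 1.54 to 9.40) and the 4.05 on 2 (interval 2.16 to 7.11). No trend along the stretch is therefore read from replicate 1. The reproducible peak with the highest log2 fold, 5.22, lay at 128998443 to 128998457. The outermost reproducible peaks had 4.35 (128998274 to 128998289) and 3.88 (128998496 to 128998510), and the lowest values, 3.80 and 3.75, were inside the stretch, at 128998378 to 128998392 and 128998393 to 128998423. Of the 10 peaks, 8 overlapped an enriched cluster in replicate 1 and 10 in replicate 2. Outside the stretch TNPO3 had 1 more enriched cluster in replicate 1, 47 IP reads against 1 input read at 129053033 to 129053080. Replicate 2 had 4 IP reads against 1 input read at an overlapping cluster, which was not enriched. Its own enriched clusters outside the stretch had log2 folds of 5.25 (129031886 to 129031996), 3.85 (129034245 to 129034354), 3.44 (129035989 to 129036060) and 3.08 (129051559 to 129051630).

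**Figure D3:**
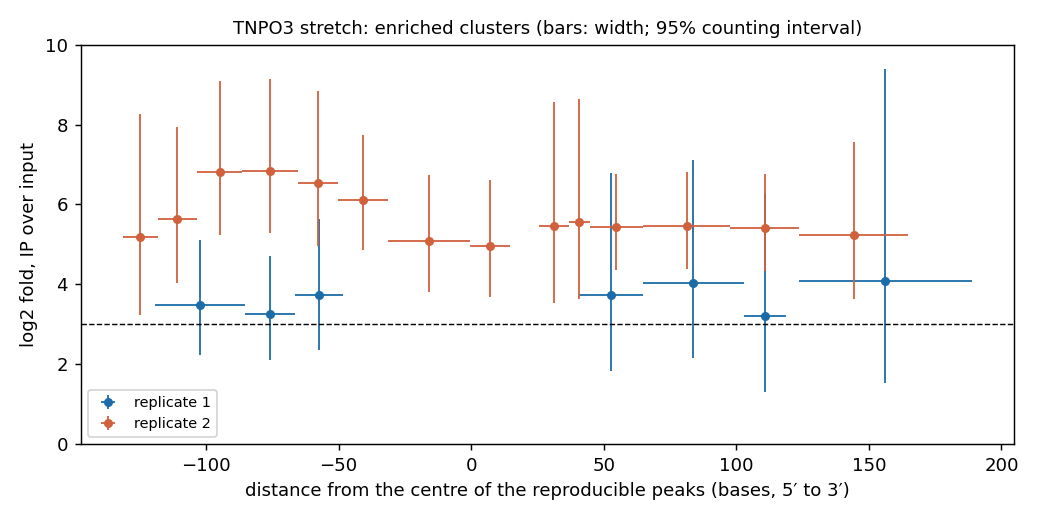
Log2 fold of IP over input for the enriched clusters of the TNPO3 stretch, by distance in bases from the centre of its reproducible peaks, 5′ to 3′. Horizontal bars are cluster widths and vertical bars exact 95% counting intervals. Replicate 1 points lie between 3.22 and 4.07 and replicate 2 points between 4.96 and 6.85.

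IPO7, an import receptor for ribosomal proteins among other cargo, had a single reproducible site near its 5′ end. It spans 9384652 to 9448127 on the plus strand of chromosome 11. Its 2 reproducible peaks touched each other at 9391829 to 9391842 (log2 fold 5.32) and 9391843 to 9391879 (log2 fold 5.50), 7.18 to 7.21 kb from the 5′ end. These were the highest reproducible folds among the 10 genes. Replicate 1 had 64 and 74 IP reads against 1 input read each, with log2 folds of 4.27 and 4.48. Replicate 2 had 47 IP reads against 2 input reads at 9391821 to 9391847 (log2 fold 5.41) and 50 IP reads against 1 input read at 9391848 to 9391901 (log2 fold 6.50). IPO7 was enriched at this site in both replicates, but its folds rest on 1 or 2 input reads and their intervals are wide (1.95 to 9.80 for the higher replicate 1 cluster). In all, IPO7 had 3 enriched clusters of 106 in replicate 1 and 9 of 60 in replicate 2.

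TNPO1, the transportin that imports many RNA-binding proteins, spans 72816661 to 72914388 on the plus strand of chromosome 5. It had 3 enriched clusters of 103 in replicate 1 and 4 of 40 in replicate 2, and no reproducible peak. Its replicate 1 clusters ran without a gap from 72890964 to 72891033, with 53, 54 and 88 IP reads against 1 input read each and log2 folds of 3.99, 4.02 and 4.73. Replicate 2 had 22 and 24 IP reads against 1 input read each over 72890964 to 72891032, with log2 folds of 5.31 and 5.44. Enrichment at this TNPO1 place was therefore seen in both replicates, on 1 input read throughout.

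KPNB1, the importin beta that carries cargo bound to importin alpha, spans 47649919 to 47685505 on the plus strand of chromosome 17. It had 0 enriched clusters of 54 in replicate 1 and 0 of 21 in replicate 2. Its highest log2 folds were 1.85 from 12 IP reads against 1 input read in replicate 1, and 3.18 from 5 IP reads against 1 input read in replicate 2. The median log2 fold of KPNB1 clusters was 0.15 in replicate 1 and -0.05 in replicate 2. In the other 9 genes the replicate 2 medians ran between 1.27 and 2.27, so KPNB1 RNA was the exception in replicate 2. In replicate 2, 8 of the 21 KPNB1 clusters (38.1%) lay within 3 kb of the 3′ end, against 8.13% of all karyopherin clusters. XPO7 and XPOT had 23.1% and 21.7% there, and KPNB1 has the shortest span of these genes.

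IPO5, an import receptor for histones and ribosomal proteins, spans 97953675 to 98024296 on the plus strand of chromosome 13. It had 0 enriched clusters of 68 in replicate 1 and 0 of 7 in replicate 2. Its highest log2 folds were 1.85 from 12 IP reads against 1 input read in replicate 1, and 2.66 from 7 IP reads against 2 input reads in replicate 2. With 7 clusters, it was the most sparsely covered of the 10 genes in replicate 2.

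Few clusters of these genes lay near the ends of the spans, enriched or not, and the spans run from 35.6 to 102 kb. Within 3 kb of the 5′ end lay 1 of 23 in replicate 1 and 2 of 79 in replicate 2, from XPOT in both and XPO5 in replicate 2. Within 3 kb of the 3′ end lay 0 of 23 and 1 of 79, the last in XPO1. Over all karyopherin clusters, enriched or not, the shares were 5.45% and 5.50% at the 5′ end and 7.84% and 8.13% at the 3′ end. Neighbouring clusters touch and share their RNA, so these are counts and no test was made. No difference between enriched clusters and all clusters is read from so few. Exon and intron were not assigned.

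**Figure D4:**
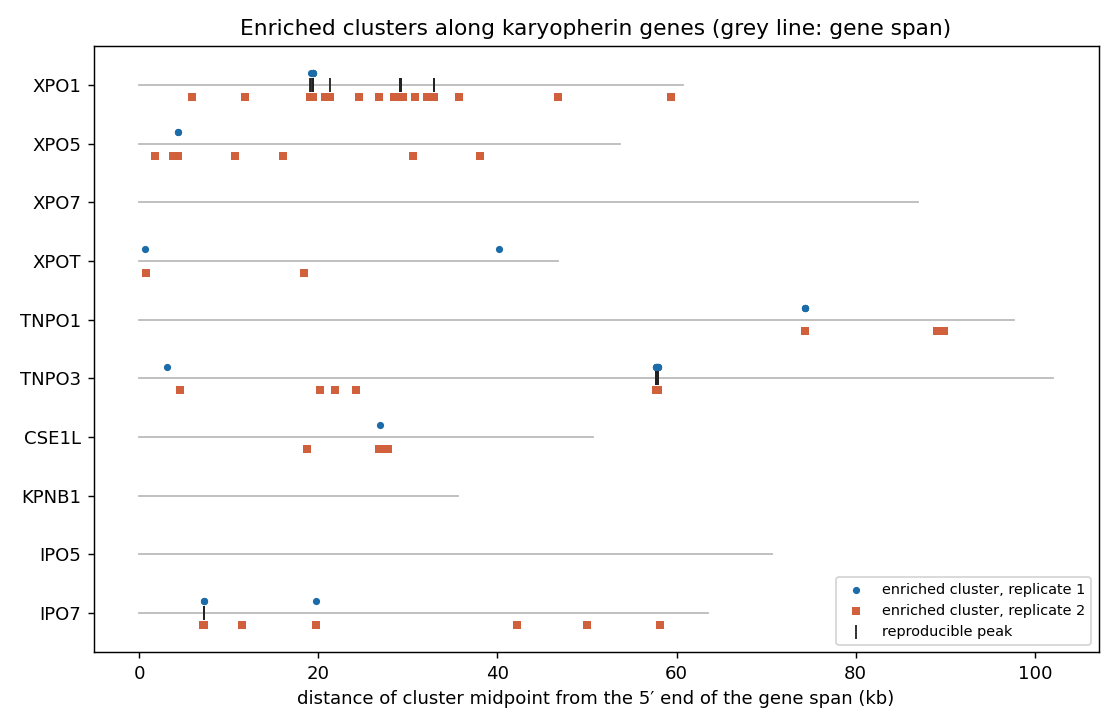
Enriched clusters of replicate 1 (circles) and replicate 2 (squares) and reproducible peaks (vertical ticks) along each karyopherin gene, by distance of the midpoint from the 5′ end of the span in kb. Grey lines are the spans. TNPO3 and IPO7 have their reproducible peaks at 1 place each, and XPO1 at several between 19.1 and 33.0 kb.

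Clusters that overlapped between replicates were paired, each with its best match, which gave 258 pairs. The fold was higher in replicate 1 in 43 pairs and in replicate 2 in 215, and the median difference, replicate 1 minus replicate 2, was -1.31 on the log2 scale. KPNB1 again differed in direction, with 8 of 12 pairs higher in replicate 1 and a median difference of 0.63. In the other 9 genes the median differences ran from -2.17 in XPO7 to -0.71 in TNPO1. Over all 258 pairs, Pearson's r of the folds was 0.71 and Spearman's rho was 0.68, as a description, since pairs share transcripts and libraries. TNPO3 had the highest r and rho among the 9 genes with more than 5 pairs (r = 0.86 and rho = 0.86, 43 pairs). Those pairs include adjoining clusters of the short TNPO3 stretch, where each replicate had its highest fold in that gene. XPO7 had r = -0.15 over 10 pairs. In 16 pairs both clusters were enriched, in 1 replicate 1 alone (TNPO3), and in 45 replicate 2 alone.

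**Figure D5:**
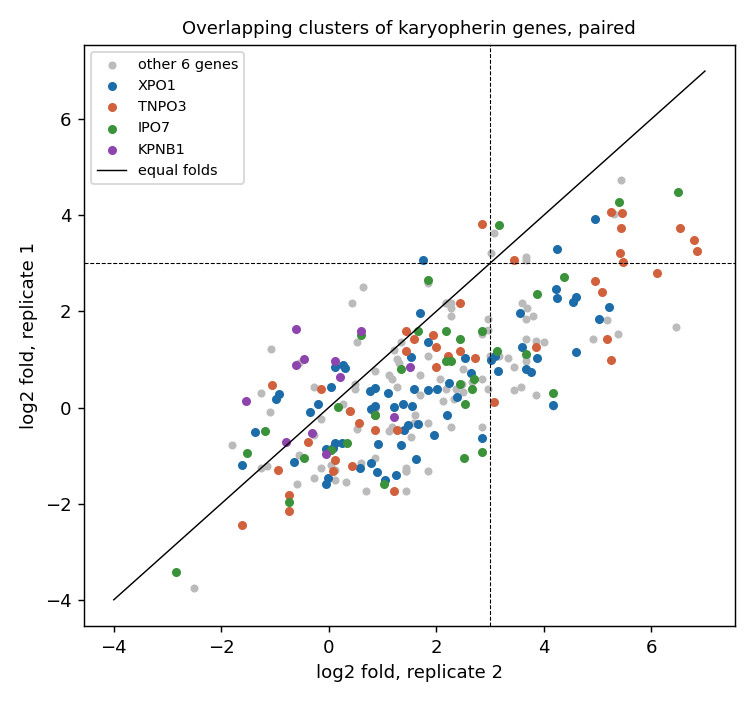
Each point is a pair of overlapping clusters, with its log2 fold in replicate 1 on the vertical and in replicate 2 on the horizontal axis. The solid line marks equal folds and dashed lines the threshold of 3. Most points lie below the line, 215 of 258, and 8 of the 12 KPNB1 points lie above it.

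Just inside the threshold in replicate 1 was an XPO5 cluster at a log2 fold of 3.12 (58 IP reads against 2 input reads), and just outside was a TNPO3 cluster at 2.80 (93 IP reads against 4 input reads). In replicate 2 the nearest values were 3.02 in XPO1 (63 IP reads against 14 input reads) and 2.99 in TNPO1 (22 IP reads against 5 input reads).

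At a log2 fold of at least 2, 32 karyopherin clusters were called in replicate 1 and 114 in replicate 2, against 2.45% and 16.9% of all clusters. At a log2 fold of at least 4, the counts were 9 and 42, against 0.468% and 7.09%. At a −log10 p of at least 5, they were 13 and 71, against 0.885% and 8.21%. By gene, over all 15441 genes, these limits called 20.3%, 6.26% and 9.55% in replicate 1 and 33.8%, 24.1% and 22.9% in replicate 2. A reproducible peak at a log2 fold of 4 was held by 3.12% of genes, and at a −log10 p of 5 by 3.59%.

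The wider family and its partners were counted from lists of the pathway. Of the 20 importin beta family genes, 9 had an enriched cluster in replicate 1, 12 in replicate 2 and 5 a reproducible peak. Of the 10 not described above, IPO11 and XPO6 had 1 reproducible peak each, at log2 folds of 4.82 and 5.22. IPO11, an import receptor, had 4 enriched clusters in replicate 1 and 20 in replicate 2, while XPO6, which exports actin, had 1 and 4.

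Among 6 importin alpha genes, the adaptors that bridge cargo to KPNB1, 4 had an enriched cluster in replicate 1, 5 in replicate 2 and 1 a reproducible peak. That gene was KPNA6, with 2 peaks of up to 6.49, above the 5.50 in IPO7, the highest peak of the 10 genes. It had 6 enriched clusters in replicate 1 and 14 in replicate 2. Of 9 Ran cycle genes, 2 had an enriched cluster in replicate 1, 5 in replicate 2 and 0 a reproducible peak. RANBP1, which helps Ran hydrolyse GTP, led replicate 1 with 6 enriched clusters and had 0 in replicate 2, and RANGAP1, the GTPase activator of Ran, led replicate 2 with 6 and had 0 in replicate 1.

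Of 30 nucleoporin genes, whose products build the nuclear pore, 13 had an enriched cluster in replicate 1, 23 in replicate 2 and 5 a reproducible peak. NUP214 had 7 peaks up to a log2 fold of 5.31, SEH1L 4 up to 4.46, NUP188 3 up to 3.97, NUP153 2 up to 4.88 and GLE1 1 at 4.52. These shares stand beside the 14.9%, 31.2% and 3.67% of all genes given above, and genes with more clusters have more chances of a call, so nothing particular to the lists is drawn from them.

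By the numbers of enriched clusters in replicate 1, in replicate 2 and of reproducible peaks, taken as log2(count + 1), the genes most like XPO1 were MED13, LARP4 and LARS1. MED13 had 6, 26 and 13, LARP4 had 5, 34 and 6, and LARS1 had 7, 18 and 10, at distances of 0.55, 0.94 and 1.04 from XPO1 with its 4, 31 and 12.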

How the data were processed

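Clusters were taken from 3 peak lists of ADAR eCLIP in K562 cells (2 IP and 2 input libraries). The authors' deposited log2 folds of IP over input and −log10 p-values were used as given, with p limited to 400, and each is the peak's own value. The tools named are STAR 2.4.0i and cutadapt 1.9, per the submitters' processing notes. The peak caller and the way replicates were combined are not given in the sources used here. Coordinates fit GRCh38, since clusters reached 83224967 on chromosome 17.

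Gene spans were RefSeq GRCh38.p14, and strand came from its promoter table for 8 genes. For XPO7 and KPNB1 it came from the clusters (at least 5, with at least 80% on a strand), so opposite-strand counts for those genes say nothing. Library depth is not stated. IP and input reads were recovered from fold and p, with the commonest fold taken as 3 IP reads to 1 input read in replicate 1, and likewise in replicate 2. The p was matched within 0.002 by an exact binomial test below 5 reads and a continuity-corrected chi-square above. Reads came out for 447 of 1046 karyopherin clusters in replicate 1 and 317 of 418 in replicate 2. The others mostly had p listed as 0, in 583 and 72 clusters. The recovery was tested on simulated data. SciPy 1.17.1 and pandas 2.3.3 were used.

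No test across samples was run, because the genes were chosen by these same folds. Members and lists were chosen with earlier results of these data known. Genes of the other lists were named by reproducible peaks, at most 6 per list, and otherwise by the most enriched clusters in each replicate. Alternatives were other thresholds, any overlap, merging, input minimums and single replicates.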

Additional observations from a re-analysis of the deposited data

How the results depend on the processing

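Counts moved with the threshold and the unit counted. In replicate 1 the 23 enriched karyopherin clusters became 9 at log2 fold 4, 13 at −log10 p 5, 13 when touching clusters were merged, 6 with a ratio whose denominator in lowest terms was at least 2, and 12 with at least 2 recovered input reads, a setting chosen after seeing the data. In replicate 2 the 79 became 42 at log2 fold 4, 48 merged and 50 with that denominator. The 24 reproducible peaks became 9 merged sites, 14 that overlapped an enriched cluster in both replicates and 13 at log2 fold 4. With a single replicate, enriched clusters numbered from 23 (without replicate 2) to 79 (without replicate 1). The median position of enriched clusters, 49.6% of the span, was 54.9% at log2 fold 4 and 48.5% to 53.0% in single replicates. Importin alpha genes with an enriched cluster in replicate 1, 4 in all, fell to 1 at log2 fold 4 and to 1 at −log10 p 5. Ran cycle genes, 2 in replicate 1, became 5 at log2 fold 2 and 0 at log2 fold 4, and 5 in replicate 2 became 3 at log2 fold 4. Nucleoporin genes in replicate 1, 13 in all, became 4 at log2 fold 4. The median difference between replicates, -1.31, stayed between -1.71 and -1.20 under every alternative run. Of 60 comparisons of summary values under alternatives, 40 moved by less than the limits set. The cause was not tested. No paired analysis was possible because the results come from no test: each fold already sets IP against input within a replicate, and the folds of paired clusters, which chose the genes, are given as descriptions. Folds on 1 input read, 11 of 23 enriched clusters in replicate 1 and 9 of 79 in replicate 2, are limited by depth.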

Other observations

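Some karyopherin clusters were enriched at the same place in both replicates and are not in the reproducible list. Of the 23 enriched clusters of replicate 1, 20 were overlapped by an enriched cluster of replicate 2. Over the enriched replicate 1 clusters of the whole series the share was 41.9%. Because the genes were chosen by these same folds and peaks, nothing is read from the difference. The 20 are not separate sites, since 7 lay in the TNPO3 stretch and 4 between 61519208 and 61519452 in XPO1. Of those 20, 8 overlapped no reproducible peak: 3 in TNPO1, 2 in XPO5 and 1 each in CSE1L, IPO7 and TNPO3. Over the whole series the share left out in this way was 54.6% (1694 of 3103). The 3 in TNPO1, the transportin known to import ADAR1, had log2 folds of 3.99 to 4.73 in replicate 1, over replicate 2 clusters of 5.31 and 5.44, all on 1 input read. With at least 2 input reads required, a limit chosen after seeing the data, TNPO1 had 0 enriched clusters in replicate 1 and 1 in replicate 2. The TNPO3 cluster, 128998204 to 128998268, had 56 IP reads against 1 input read in replicate 1, and the replicate 2 cluster over it had 63 IP reads against 3 input reads (log2 fold 5.25, interval 3.63 to 7.56).

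In TNPO1 and IPO5 the first part of the gene span held no cluster in either replicate. The first TNPO1 clusters lay at 32.4% of the span in replicate 1 and 33.0% in replicate 2, just past the second start that RefSeq lists, at 72848139, which is 32.2% of the span. The first IPO5 clusters lay at 32.6% and 37.0%, where the RefSeq start table lists no second start. In the other 8 genes the first cluster of replicate 1 lay at 1.31% of the span or less.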
